A study of Mus musculus with 6 samples.

Results

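The genes described here are 3 fibroblast growth factor (FGF) receptors, *Fgfr1*, *Fgfr2* and *Fgfr3*, and 7 genes whose mRNA is a usual readout of the ERK kinases downstream of them, *Spry1*, *Spry2*, *Spry4*, *Dusp4*, *Dusp6*, *Etv4* and *Etv5*. They were taken by gene name, and all 10 were found among the 53379 genes of the table and passed the filter on low counts. The question was whether the 7 output genes follow the level of the receptors. RNA-seq was performed on neural stem cells (NSCs) derived from the cortex of mouse embryos at E14.5, grown as neurospheres in medium with 10 ng/ml bFGF and 10 ng/ml EGF. Both groups carried the *Tbl1xr1* flox/flox genotype. The 3 control libraries (replicates 1, 1_1 and 2) came from cells infected with a lentivirus for GFP, and the 3 libraries labelled Cre (Cre replicates 2, 2_2 and 3, or Cre libraries for short) from cells infected with one for Cre-GFP, Cre being the recombinase that removes the floxed part of the gene. In the study, GFP+ cells were sorted after infection and their genotype was checked. The paper reports *Tbl1xr1* mRNA and protein as absent by other assays, not analysed here. The embryo behind each culture and whether replicates 1 and 1_1 or 2 and 2_2 share a culture are not given in the sources used here. The p-values therefore measure the spread between these libraries, which may be technical.

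FGF receptors are tyrosine kinases at the cell surface. When an FGF binds together with heparan sulphate, the receptor recruits adaptors that switch on Ras, and Raf, MEK and ERK are then phosphorylated in turn. ERK in the nucleus relieves repression by Capicua and activates ETS factors, and among the genes that respond are the Sprouty inhibitors and the DUSP phosphatases, which damp the pathway, and the PEA3-type ETS factors *Etv4* and *Etv5*, which carry it to further genes. In cultured NSCs, FGF and EGF keep the cells dividing.

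The values are normalized counts, that is, reads scaled by a size factor for each library. A library held 7510615 to 14828100 reads on genes (median 7762821 in control against 12210170 for Cre), so depth moved with the group. The targeted gene, *Tbl1xr1*, had 2190 to 2721 normalized counts in the control libraries and 2905 to 3774 in the Cre libraries (log2 fold change 0.45, limma adjusted p = 0.06). A count over the whole gene does not measure the deleted exon by itself, so this value by itself does not check the labels, and directions are those of the Cre libraries. In limma's fit over the 14840 genes with a mean of at least 10, with Benjamini-Hochberg adjustment, 704 genes (4.74%) were higher and 774 (5.22%) lower at an adjusted p under 0.05. The groups did not overlap for 2184 genes that were higher (14.7%) and 2306 that were lower (15.5%).

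Of the 10 genes, 1 passed the test, *Fgfr3*, which was 2.71-fold higher in the Cre libraries. All 3 receptors were higher without overlap between the groups. None of the 7 output genes passed (limma), with 2 of them at an unadjusted p under 0.05, a limit that 25.5% of all tested genes met, and 0 passing with edgeR or DESeq2. Of the 7, 3 had a log2 fold change above 0 and 4 below 0, and the median was -0.01, beside -0.001 over all tested genes. The median of all 10 was 0.28. Of the 10 genes, 4 were higher and 1 lower without overlap. In bulk libraries, a change in the share of cells of a type and a change in RNA per cell cannot be told apart. The libraries were also not alike in the output genes, as described after the single genes. All fold changes are on the log2(normalized count + 1) scale.

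**Figure D1:**
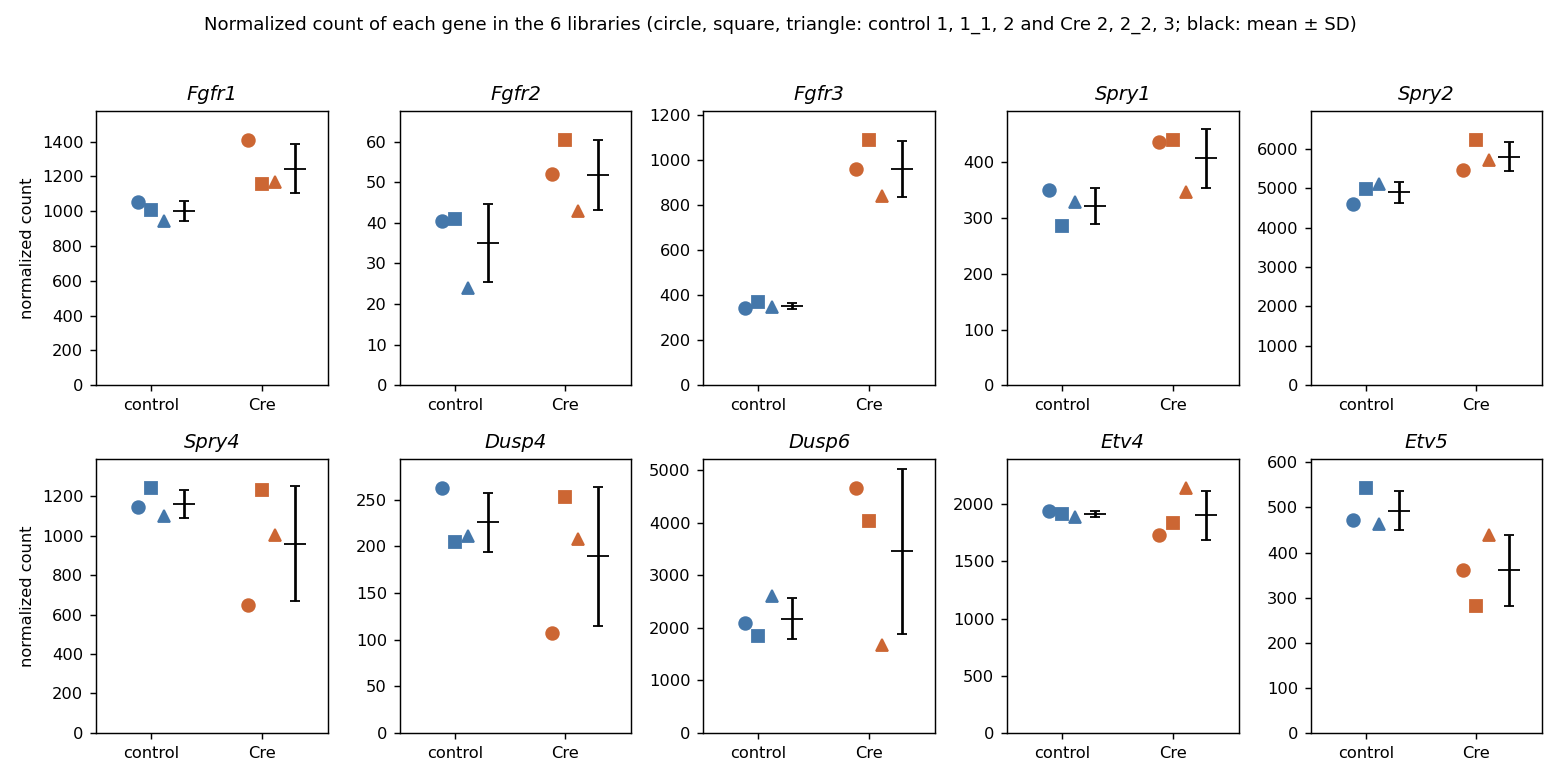
Normalized count (vertical axes, from 0) of the 10 genes in control and Cre libraries, with 1 point per library and the mean ± SD of 3 libraries beside them. The Cre points of *Fgfr3* lie at 837 to 1086, all above the control points at 344 to 367, while for *Dusp6*, *Spry4* and *Dusp4* the Cre points spread below and above or into the control range.

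*Fgfr3* (ENSMUSG00000054252, chromosome 5 from 33721724 to 33737068 in GRCm38.p6, as for all positions here) encodes the receptor that marks ventricular zone progenitors and, later, astrocytes. Control replicates 1, 1_1 and 2 had 344.13, 367.16 and 345.41 normalized counts of it, and Cre replicates 2, 2_2 and 3 had 958.48, 1085.58 and 837.17. The lowest Cre library was thus far above the highest control library. The mean went from 352 ± 12.9 (SD, n = 3) to 960.4 ± 124 (SD, n = 3), a log2 fold change of 1.44 (95% confidence interval 1.14 to 1.73, limma adjusted p = 0.000113). The gene passed under all 17 alternatives, with adjusted p-values from 1.18e-15 to 0.00209. Counts per gene do not separate the splice forms that set which FGFs a receptor binds.

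The stretch upstream of the first annotated start of *Fgfr3* is shown because this is the member that changed. It spans chr5:33721474-33721723 on the plus strand of GRCm38.p6, from RefSeq, and capitals mark CG pairs.
Fgfr3 upstream: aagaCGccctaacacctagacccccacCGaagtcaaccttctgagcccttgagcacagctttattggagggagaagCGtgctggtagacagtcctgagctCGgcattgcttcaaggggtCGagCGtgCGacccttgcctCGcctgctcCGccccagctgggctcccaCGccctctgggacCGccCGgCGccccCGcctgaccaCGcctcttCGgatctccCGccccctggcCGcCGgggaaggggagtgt
It held 19 CG pairs, more than 80.3% of the 32851 RefSeq promoters of this length, whose median was 6. Members that did not pass the test had 27 (first start of *Etv5*), 23 (*Spry1*), 23 (*Spry2*), 16 (*Dusp6*) and 2 (*Fgfr2*). The count is thus not particular to *Fgfr3*. Neither methylation nor binding was measured in these libraries.

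*Fgfr1* (ENSMUSG00000031565, chromosome 8 from 25518759 to 25575718) encodes the main FGF receptor of the early cortex. Control replicates 1, 1_1 and 2 had 1055.34, 1006.40 and 944.22 normalized counts, against 1405.87, 1157.90 and 1167.57 for Cre replicates 2, 2_2 and 3. The groups did not overlap, and Cre replicate 2 stood highest. With a log2 fold change of 0.31 (SE 0.12), it had an unadjusted p of 0.0296 and a limma adjusted p of 0.145 (0.12 to 0.346 over the alternatives). The gene overlaps the lncRNAs *Gm16159* and *Gm31288*. *Gm16159* had 30.7 to 56.8 normalized counts, small beside *Fgfr1*.

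*Fgfr2* (ENSMUSG00000030849, chromosome 7 from 130162451 to 130266808) was the lowest of the 10, with 18 to 75 reads in a library. It stood at 40.38, 40.96 and 24.01 normalized counts in the control libraries (replicates 1, 1_1 and 2) and at 51.94, 60.26 and 42.98 in the Cre libraries (replicates 2, 2_2 and 3). The lowest Cre library and the highest control library lay close together. At this depth the difference, 0.57 on the log2 scale, was not past the test (SE 0.30, limma adjusted p = 0.257).

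Levels of different genes were compared per kilobase of exons. In control, *Fgfr1* stood at 124 ± 6.91 (SD, n = 3) normalized counts per kilobase, *Fgfr3* at 51.2 ± 1.88 and *Fgfr2* at 4.50 ± 1.23. In the Cre libraries they stood at 154 ± 17.4, 140 ± 18.1 and 6.64 ± 1.11. The ranges of *Fgfr1* and *Fgfr3* were apart in control, and in the Cre libraries *Fgfr3* reached 158 in replicate 2_2, above *Fgfr1* there at 144. The sum of the 3 receptors per kilobase was 186, 183 and 170 for control replicates 1, 1_1 and 2, and 320, 309 and 272 for Cre replicates 2, 2_2 and 3, a ratio of means of 1.67. The share of *Fgfr3* in that sum went from 28.5% ± 1.40 to 46.4% ± 4.05 (SD, n = 3), and that of *Fgfr1* from 69.0% ± 1.18 to 51.4% ± 4.30. The sum adds mRNA levels and does not measure protein or receptors at the surface.

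**Figure D2:**
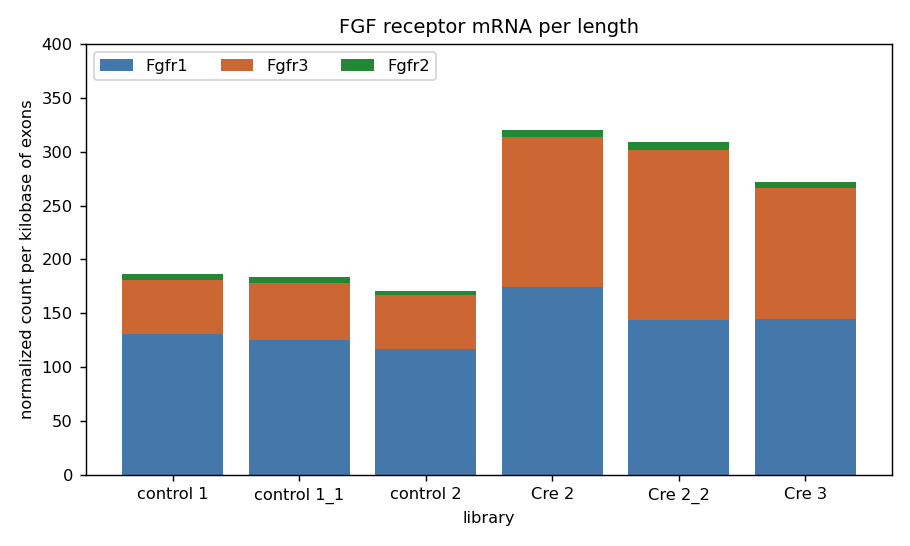
Stacked bars of *Fgfr1*, *Fgfr3* and *Fgfr2* (normalized count per kilobase of exons, axis from 0) in each of the 6 libraries. The bars reach 170 to 186 in control and 272 to 320 in the Cre libraries, and most of the added height belongs to *Fgfr3*.

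The ratio of *Fgfr1* to *Fgfr3* within a library was set against the group with an exact permutation test, two-sided, in which 3 libraries against 3 cannot give a p below 0.1. The log2 ratio went from 1.505 ± 0.09 in control to 0.37 ± 0.25 in the Cre libraries (SD, n = 3), a difference of -1.13 (exact permutation p = 0.1, 0.16 adjusted over 8 pairs of genes of 1 role). The libraries of the groups did not overlap. *Fgfr2* to *Fgfr3* differed by -0.87 (exact permutation p = 0.1, adjusted 0.16), and *Fgfr1* to *Fgfr2* by -0.26 (exact permutation p = 0.6, adjusted 0.686), with overlap.

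The Sprouty proteins are inhibitors of receptor tyrosine kinase signalling that ERK itself induces. *Spry2* (ENSMUSG00000022114, chromosome 14 from 105891947 to 105896819) was the highest of the 10 genes per length, at 2350 normalized counts per kilobase in control. Control replicates 1, 1_1 and 2 reached 4599, 4981 and 5116 normalized counts, and Cre replicates 2, 2_2 and 3 reached 5472, 6208 and 5718. The groups did not overlap, and the difference was 0.24 on the log2 scale (SE 0.12, limma adjusted p = 0.214).

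The 300 bases around the RefSeq starts of 6 of the 10 genes were searched on both strands. The letters were TGAATGAA, TGAATGGA and TCAATGAA, which are some of the forms of the Capicua site, and the ETS core CCGGAA. These letters are in 1.30%, 1.21%, 0.749% and 14.9% of the 32851 promoters. *Spry2* was the gene with matches to these letters, TCAATGAA on the minus strand at position -54 and CCGGAA on the plus strand at position 34 from the start. Its 250 upstream bases are shown because they hold the first match, written in capitals as it reads on the strand of the gene. They span chr14:105896820-105897069 on the minus strand of GRCm38.p6.
Spry2 upstream: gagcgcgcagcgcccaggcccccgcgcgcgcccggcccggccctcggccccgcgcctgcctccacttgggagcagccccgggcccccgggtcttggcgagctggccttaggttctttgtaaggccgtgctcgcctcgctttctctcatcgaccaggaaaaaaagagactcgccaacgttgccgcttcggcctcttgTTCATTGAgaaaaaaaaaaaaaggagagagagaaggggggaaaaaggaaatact
The promoters of *Spry1*, *Fgfr2*, *Fgfr3*, *Dusp6* and *Etv5* had no match. *Fgfr1*, *Spry4*, *Dusp4* and *Etv4* were not searched. A match is a description of letters, and no match says only that these letters are not in the window.

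*Spry1* (ENSMUSG00000037211, chromosome 3 from 37639947 to 37644599) had 349.64, 285.25 and 329.41 normalized counts in the same order of control libraries, and 436.30, 439.05 and 346.51 in the Cre libraries. Cre replicate 3 lay inside the control range. Its log2 fold change of 0.34 had an SE of 0.15 (limma adjusted p = 0.189).

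*Spry4* (ENSMUSG00000024427, chromosome 18 from 38586247 to 38601347) was counted at 1143, 1240 and 1098 in the control libraries and at 648, 1229 and 1002 in the Cre libraries, in the same order. The low value came from Cre replicate 2, and the other two Cre libraries were within or just under the control range. On the log2 scale the groups differed by -0.32 (SE 0.20, limma adjusted p = 0.341), and without Cre replicate 2 by -0.06 (adjusted p = 0.792, in a range of 0.158 to 0.792 over the alternatives). In the log2 ratio, *Spry2* to *Spry4* differed between the groups by 0.56 and *Spry1* to *Spry4* by 0.66, both without overlap (exact permutation p = 0.1, adjusted 0.16), and *Spry1* to *Spry2* by 0.09 (exact permutation p = 0.7, adjusted 0.7).

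*Dusp6* (ENSMUSG00000019960, chromosome 10 from 99263231 to 99267489) encodes a cytoplasmic phosphatase that removes the phosphates from ERK. Control replicates 1, 1_1 and 2 had 2086, 1839 and 2609 normalized counts, whereas Cre replicates 2, 2_2 and 3 had 4661, 4030 and 1680. Cre replicates 2 and 2_2 were above every control library and Cre replicate 3 was below every one. The groups differed by 0.55 on the log2 scale (SE 0.31, limma adjusted p = 0.291). Without Cre replicate 3 the difference was 1.01 (limma adjusted p = 0.00299), so that library decided the call. That fit kept Cre replicates 2 and 2_2, which may share a culture. With these averaged the difference was 0.33 (adjusted p = 0.538). With both pairs averaged it was 0.26 (adjusted p = 0.714, the highest over the alternatives). *Dusp6* overlaps the lncRNA *Gm34921*, and the strand used in counting is not given in the sources used here.

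*Dusp4* (ENSMUSG00000031530, chromosome 8 from 34807610 to 34819894) encodes a nuclear phosphatase of ERK and related kinases. Its normalized counts were 262, 205 and 211 for control replicates 1, 1_1 and 2, and 107, 253 and 208 for Cre replicates 2, 2_2 and 3. As for *Spry4*, the library that stood apart was Cre replicate 2. A log2 fold change of -0.33 (SE 0.27, limma adjusted p = 0.489) became 0.030 without that library (adjusted p = 0.938, in a range of 0.267 to 0.938). The log2 ratio of *Dusp4* to *Dusp6* differed between the groups by -0.88, with overlap (exact permutation p = 0.3, adjusted 0.4). That difference was -0.24 without Cre replicate 2 and -1.45 without Cre replicate 3.

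*Etv5* (ENSMUSG00000013089, chromosome 16 from 22381313 to 22439570) was lower in the 3 Cre libraries, without overlap. Control replicates 1, 1_1 and 2 were at 473, 543 and 463 normalized counts, and Cre replicates 2, 2_2 and 3 at 362, 281 and 439. This was a difference of -0.47 on the log2 scale (95% confidence interval -0.84 to -0.10), with an unadjusted p of 0.0182 and a limma adjusted p of 0.108. Without Cre replicate 3, the library nearest to control, the difference was -0.62 (adjusted p = 0.0323, the lowest over the alternatives, which reached 0.325). That fit kept Cre replicates 2 and 2_2, which may share a culture. With these averaged the difference was -0.39 (limma adjusted p = 0.164).

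*Etv4* (ENSMUSG00000017724, chromosome 11 from 101769747 to 101785310) was at 1938, 1910 and 1890 normalized counts in the control libraries and at 1731, 1840 and 2141 in the Cre libraries, in the same order. The control libraries lay within a narrow range, and the Cre libraries fell on both sides of it. The means differed by -0.01 on the log2 scale (95% confidence interval -0.27 to 0.25, limma adjusted p = 0.964). The log2 ratio of *Etv4* to *Etv5* differed by 0.46 between the groups, without overlap (exact permutation p = 0.1, adjusted 0.16).

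**Figure D3:**
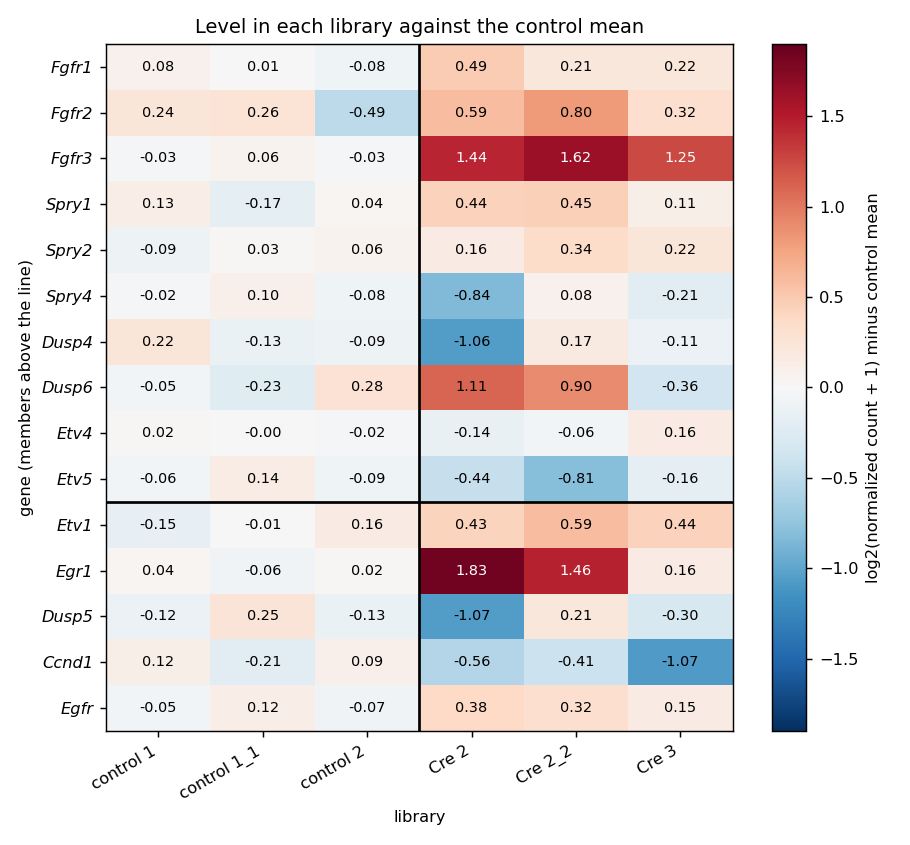
Colour and number give, for each gene (rows) and library (columns), log2(normalized count + 1) minus the control mean. The row of *Fgfr3* reads 1.44, 1.62 and 1.25 in the Cre libraries, while *Dusp6* and *Egr1* are high in Cre replicates 2 and 2_2 and not in replicate 3, and *Spry4*, *Dusp4* and *Dusp5* are low in replicate 2.

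The genes were set side by side as differences from the control mean in log2(normalized count + 1). *Fgfr1*, *Fgfr2*, *Fgfr3*, *Spry1*, *Spry2* and *Etv5* kept 1 sign in the Cre libraries, while *Spry4*, *Dusp4*, *Dusp6* and *Etv4* did not. *Fgfr3* was at 1.44, 1.62 and 1.25 in Cre replicates 2, 2_2 and 3, and *Spry2* at 0.16, 0.34 and 0.22. *Dusp6* was at 1.11, 0.90 and -0.36 in them, and *Spry1* at 0.44, 0.45 and 0.11. *Spry4* was at -0.84, 0.08 and -0.21, and *Dusp4* at -1.06, 0.17 and -0.11. *Etv5* was at -0.44, -0.81 and -0.16, and *Etv4* at -0.14, -0.06 and 0.16. The receptor sum was higher in every Cre library than in every control library, which among the output genes was also true of *Spry2*, while *Etv5* was lower in every one. For *Spry1*, *Spry4*, *Dusp4*, *Dusp6* and *Etv4* the groups overlapped. The libraries fall into 2 groups by the receptor level, so no correlation over the 6 was computed.

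Per kilobase in control, the order of levels was *Spry2* at 2350, *Dusp6* at 779, *Etv4* at 616, *Spry4* at 253, *Fgfr1* at 124, *Etv5* at 120, *Spry1* at 111, *Dusp4* at 82.5, *Fgfr3* at 51.2 and *Fgfr2* at 4.50. In that order the ranges of *Fgfr1* and *Etv5*, and of *Etv5* and *Spry1*, overlapped between libraries, and those of the other neighbours did not. In the Cre libraries, the means were 2781 for *Spry2*, 1236 for *Dusp6*, 613 for *Etv4*, 209 for *Spry4*, 154 for *Fgfr1*, 140 for *Spry1*, 140 for *Fgfr3*, 87.8 for *Etv5*, 69.1 for *Dusp4* and 6.64 for *Fgfr2*. *Fgfr3* thus stood above *Etv5* and *Dusp4* in these libraries, and below both in control. The ranges of *Dusp6* and *Etv4*, of *Spry4* and *Fgfr1*, of *Fgfr1* and *Spry1*, of *Spry1* and *Fgfr3*, and of *Etv5* and *Dusp4* overlapped there, and those of the other neighbours did not.

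Around the 10 genes, 96 others of the pathway were counted from lists, of which 72 had a mean normalized count of at least 10. Of these 72, 8 were higher and 5 lower at an adjusted p under 0.05, beside 4.74% and 5.22% of all tested genes. Their median log2 fold change was 0.13. Of 18 FGF ligands, 3 were tested and 1 rose, *Fgf1*, from 38.4 ± 14.0 to 114 ± 10.6 normalized counts (SD, n = 3, log2 fold change 1.61, limma adjusted p = 0.00494). *Fgf2*, the ligand that the medium supplies, had 41.5 ± 3.58 and 41.1 ± 11.8 normalized counts (log2 fold change -0.04, adjusted p = 0.944). *Fgf3*, *Fgf4*, *Fgf8*, *Fgf10*, *Fgf16*, *Fgf17* and *Fgf20* had 0 reads in every library.

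Of 13 tested co-receptors and other FGF-binding partners, 1 rose and 1 fell. *Flrt2*, a transmembrane protein whose family binds FGF receptors, rose by 0.85 on the log2 scale (limma adjusted p = 0.0422). *Cnpy1*, a gene tied to FGF receptor maturation in zebrafish, was lower by at least 248-fold in the Cre libraries, with at most 3 reads there against 606.5 ± 35.5 normalized counts (SD, n = 3) in control (limma adjusted p = 7.39e-07). The bound takes 3 reads per library as the floor.

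Among 19 tested adaptors and kinases of the cascade, none rose and 2 fell (limma). At an unadjusted p under 0.05, 3 were higher and 4 lower, beside 25.5% of all tested genes in either direction. The 2 that fell were *Hras*, a Ras GTPase (log2 fold change -0.65, limma adjusted p = 0.00933), and *Mapk3*, which encodes ERK1 (-0.57, adjusted p = 0.0159). None of the 13 tested other feedback inhibitors, among them the Spred proteins and further DUSPs, passed with limma or edgeR. In that list 5 had an unadjusted p under 0.05, beside 25.5% of all tested genes, and 1 passed with DESeq2. *Dusp5* was at -1.07, 0.21 and -0.30 log2 units from the control mean in Cre replicates 2, 2_2 and 3, low in the same library as *Spry4* and *Dusp4*.

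Of 11 other tested ERK output genes, 3 rose and 1 fell. *Epha4*, a receptor for ephrins, rose by 2.69 on the log2 scale (limma adjusted p = 0.000915), from 16.7 ± 6.84 to 111 ± 33.1 normalized counts (SD, n = 3). *Etv1*, the third PEA3-type ETS factor, rose by 0.48 (adjusted p = 0.0352), while *Etv4* and *Etv5* had -0.01 and -0.47. *Egr1*, an immediate early gene, was at 1290, 1201 and 1270 normalized counts in the control libraries and at 4469, 3456 and 1403 in Cre replicates 2, 2_2 and 3 (log2 fold change 1.15, adjusted p = 0.0446). Its Cre replicate 3 was close to control, as for *Dusp6*, and the adjusted p was 7.41e-05 without that library, the lowest over the alternatives. That fit kept Cre replicates 2 and 2_2, which may share a culture. *Ccnd1*, which encodes cyclin D1, fell (-0.68 on the log2 scale, adjusted p = 0.0376).

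Among 10 transcription factors of the pathway, *Ets1* (log2 fold change 1.21, limma adjusted p = 0.000384) and *Atxn1*, which encodes a partner of Capicua (2.03, adjusted p = 0.00193), rose and *Ets2* fell (-0.89, adjusted p = 0.0175). *Cic*, which encodes Capicua itself, had a log2 fold change of 0.23 (adjusted p = 0.296). Of 3 tested genes of the EGF receptor family, whose ligand is the other mitogen of the medium, *Erbb4* rose (1.25, adjusted p = 0.00925). *Egfr* had 3269 ± 248 and 3983 ± 320 normalized counts (SD, n = 3, log2 fold change 0.28, adjusted p = 0.158).

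*Fgf1*, *Cnpy1*, *Epha4*, *Ets1* and *Atxn1* passed under all 17 alternatives. The others did not when single libraries were left out, and 6 of them did not with control replicates 1 and 1_1 averaged, *Mapk3* (adjusted p = 0.054), *Ets2* (0.0782), *Ccnd1* (0.0925), *Etv1* (0.127), *Egr1* (0.133) and *Flrt2* (0.141, and 0.182 with both pairs averaged). With Cre replicates 2 and 2_2 averaged, *Egr1* (limma adjusted p = 0.084), *Etv1* and *Flrt2* did not pass. *Egr1* (0.168) and *Etv1* also did not pass with both pairs averaged. *Egr1* was at 0.0511 with a mean of at least 50, and *Ccnd1* at 0.0512 with no filter. *Hras* had an adjusted p of 0.0668 without control replicate 1. *Erbb4* had up to 0.0561 without control replicates 1 or 2 or Cre replicate 2_2, *Mapk3* up to 0.0843 without control replicates 1_1 or 2 or Cre replicate 2_2, and *Ets2* up to 0.0838 without control replicates 1 or 1_1. *Etv1*, *Flrt2* and *Egr1* did not pass when any 1 of the control libraries or Cre replicate 2_2 was left out, with adjusted p-values up to 0.178, 0.173 and 0.177. *Ccnd1* did not pass when any 1 of the control libraries or Cre replicate 3 was left out, with an adjusted p of up to 0.16.

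**Figure D4:**
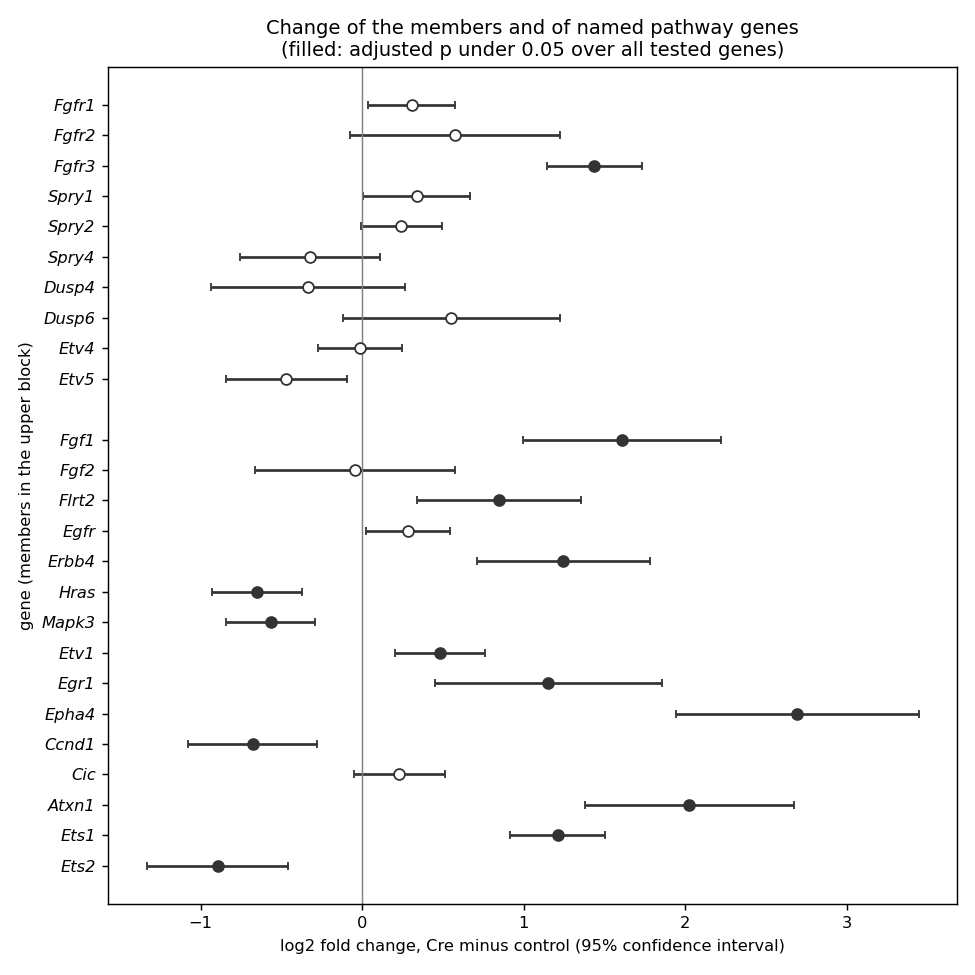
Log2 fold change (horizontal axis, Cre minus control, with 95% confidence intervals) of the 10 genes (upper block) and of named pathway genes (lower block), filled where the adjusted p is under 0.05. In the upper block only *Fgfr3* at 1.44 is filled, the intervals of *Fgfr1*, *Spry1* and *Etv5* lie to one side of 0, and the other 6 cross it.

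Some astrocyte and oligodendrocyte lineage markers moved with the group. Of 8 tested astrocyte markers, 5 rose (limma), *S100b* (log2 fold change 3.10), *Aqp4* (1.64), *Apoe* (1.39), *Slc1a2* (1.16) and *Sox9* (1.01). *S100b* went from 238 ± 14.7 to 2064 ± 407 normalized counts (SD, n = 3). The normalized counts summed over all 10 listed ran from 13035 to 14721 in control and from 21255 to 26747 in the Cre libraries. In that list *Aldh1l1* had 17.3 ± 2.34 and 5.35 ± 3.30 normalized counts (SD, n = 3, log2 fold change -1.65, limma adjusted p = 0.065), without overlap, and *Gfap* was below the filter with 0 to 12 reads. Of 6 tested oligodendrocyte lineage markers, 3 rose, *Pdgfra* (log2 fold change 0.86), *Olig2* (0.71) and *Cspg4* (0.64). The sums over this list were 12488 to 14404 and 17236 to 19639. Much of both sums came from genes already high in control, *Slc1a3* (mean 6060), *Sox9* (4272), *Olig1* (7872) and *Olig2* (5157). *Sox10* and *Mog* were below the filter, and *Mbp* did not pass (7.23 ± 1.73 and 13.9 ± 11.7 normalized counts, SD, n = 3). Among 9 neural stem cell markers, which include the defining *Nes*, *Sox2* and *Pax6*, none rose and 2 fell, *Nes* (log2 fold change -0.85) and *Sox1* (-2.27), with sums of 33556 to 37350 and 32104 to 33995. None of 6 tested neuron markers passed with limma, edgeR or DESeq2, with sums of 9316 to 9539 and 10155 to 11383 and *Stmn2* at 0. *Map2* made up most of these sums (9210 ± 95.2 and 10541 ± 626, SD, n = 3). The 1 marker at an unadjusted p under 0.05 was *Elavl3*, which was lower (81.2 ± 25.6 and 50.7 ± 2.81). Without overlap, 1 of the 6 was higher (*Map2*) and 2 were lower (*Elavl3* and *Snap25*), beside 14.7% and 15.5% of all tested genes. Markers of microglia (sums of 5.51 to 10.2 and 5.54 to 9.47, with *C1qa* at 0), endothelium (26.7 to 40.4 and 14.3 to 19.4, with *Cdh5* and *Cldn5* at 0) and meningeal fibroblasts (0.918 to 5.85 and 0.693 to 20.6, with *Col1a2* and *Pdgfrb* at 0) were low. The 1 tested endothelial marker was *Kdr*, at 24.5 ± 9.02 and 8.74 ± 1.71 normalized counts (SD, n = 3). It was lower without overlap (log2 fold change -1.34, limma adjusted p = 0.0677). *Fgfr3* is itself expressed by astrocytes and their precursors, and the part of astrocyte and oligodendrocyte lineage cells in its rise was not tested.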

How the data were processed

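RNA-seq was performed on 3 control and 3 Cre libraries of NSCs (TruSeq RNA v2). Samples were grouped by their labels. Per the labels, the authors' processing notes name STAR 2.7, DESeq2 and mm10, while the methods of the paper name TopHat with mm9 and mm10. The read counter, strand setting and annotation are not given in the sources used here. The deposited values are normalized counts, a signal made by the authors by dividing reads by a size factor per library. The deposited log2 fold changes and their standard errors, the test statistic (a score) and the p-values of the authors' own comparison were not used. Of 53379 rows, 873 have no gene name, and 1 with a missing value was left out. Whole reads were recovered for 100% of values, to a tolerance of 0.01 reads. As an alternative, edgeR on them called 1483 genes and DESeq2 1755.

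The test was limma 3.58.1 (lmFit, eBayes with trend) in R 4.3.3 on log2(normalized count + 1), for genes with a mean of at least 10, with Benjamini-Hochberg adjustment at 0.05. The 17 alternatives were edgeR 4.0.16 and DESeq2 1.42.0 on recovered reads, pseudocounts of 0.5 and 5, no filter, a mean of at least 50, TMM and total scaling, averaging replicates 1 and 1_1, 2 and 2_2 or both, and leaving out each library. Ratios of 2 genes were tested with exact permutations (scipy 1.17.1). Levels per length used the union of exons in GENCODE M1. Promoters and coordinates came from RefSeq (GRCm38.p6). The tests were tried on simulated counts with the same dispersion for every gene and independent libraries. That setting does not copy the spread of single libraries seen here or a possible sharing of cultures. The members and lists were chosen with earlier results of these data known. All 10 members were named, and from the pathway lists the genes past the threshold and *Fgf2*, *Egfr*, *Mapk3*, *Ccnd1*, *Cic* and *Cnpy1*. Another gene named by this rule is not reported here. *Dusp5* was named after its values were seen, as were the markers given by name.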

Additional observations from a re-analysis of the deposited data

How the results depend on the processing

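*Fgfr3* passed under every alternative, with log2 fold changes from 1.34 to 1.53. The count of genes past the threshold moved from 1478 to 660 with control replicates 1 and 1_1 averaged and to 885 with both pairs averaged, and with 1 library left out it ran from 558 (without control replicate 1) to 2396 (without Cre replicate 2). The count among the 10 genes was 1 in every fit except that without Cre replicate 3, where *Fgfr3*, *Dusp6* and *Etv5* passed (range 1 to 3). That fit kept Cre replicates 2 and 2_2, which may share a culture. The log2 fold change of *Etv4* was 0.032 with Cre replicates 2 and 2_2 averaged and 0.036 with both pairs averaged, and ran from -0.10 to 0.053 with 1 library left out. With 1 library left out, *Dusp4* ran from -0.59 to 0.030, *Fgf2* from -0.27 to 0.079 and the log2 ratio of *Spry1* to *Spry2* from -0.0016 to 0.20. Over the named genes and ratios, 470 values kept their direction and side of the threshold, 39 no longer passed, 2 newly passed and 9 changed sign. The ratios, whose p cannot go below 0.1, are in these counts and could only keep or change sign. The cause of these shifts was not tested. Scaling moved the median of all genes by less than 0.01 (log2). Lengths of the longest transcript gave shares of *Fgfr3* of 28.6% (control) and 46.5% (Cre). No paired analysis was possible because the groups share only replicate number 2. Ratio tests with 1 library left out cannot give a p below 0.2. Depth limits *Fgfr2* (18 to 75 reads).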
